A study of Mus musculus with 15 samples.

Results

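The Rab small GTPases are the members of the Ras superfamily that direct membrane traffic. They were taken here as every row of the deposited expression table whose symbol is Rab followed by a number and at most 1 letter, and this rule found 50 genes of 12798 in the table. All 50 passed the filter on low values, which asked for 2 libraries or more at 0 or above on the log2 scale and left 12572 genes.

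A Rab protein is switched on when a guanine nucleotide exchange factor (GEF) loads it with GTP and switched off when a GTPase-activating protein (GAP) makes it hydrolyse that GTP. In the GTP form it sits on a particular membrane and recruits effectors, which are tethers, motors and adaptors that carry a vesicle to its target. Different Rabs mark the endoplasmic reticulum and Golgi, early, recycling and late endosomes, and secretory granules. In blood cells Rab27a and its effectors are known for the release of granules from mast cells and cytotoxic lymphocytes, and Rab32 and Rab38 for building lysosome-related organelles.

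The study profiled progenitors on the way to innate lymphoid cells (ILCs), sorted from bone marrow of C57BL/6 mice, in 15 bulk RNA-seq libraries. ALP_WT (n = 3), lymphoid progenitors, were Lin- Kit+ 2B4+ a4b7- Flt3high IL-7Ra+ cells of Tcf7EGFP/+ mice, in which a fluorescent protein reports the gene for the transcription factor TCF-1. Early ILC progenitors (EILP) were Lin- Kit+ 2B4+ a4b7+ Tcf7+ Thy1- cells: EILP_WT (n = 3) came from Tcf7EGFPnull/+ mice and EILP_KO (n = 2) from Tcf7EGFPnull/- mice, while the Tcf7GFP Zbtb16GFP mice gave the sEILP_WT fraction (n = 2, Zbtb16low Flt3high) and the cEILP_WT fraction (n = 3, Zbtb16high Flt3low). ILCP_WT (n = 2), the ILC progenitor, were Thy1+ IL-7Ra+ cells of Tcf7EGFP/+ mice. The EILP_WT controls therefore carried 1 null Tcf7 allele, and in the comparisons of EILP_WT with ALP_WT or ILCP_WT cell type and genotype cannot be told apart. The same holds for sEILP_WT against ALP_WT and for ILCP_WT against cEILP_WT, whose reporter mice differed. ILCP_WT and ALP_WT carried the same labelled genotype. The labels do not say that replicates came from separate animals, so p-values measure the spread between these libraries. The labels also give 2 batches, and both sEILP_WT libraries were in batch 1 while each other group was in both.

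Tcf7 was at 9.89, 10.81 and 11.14 on the log2 scale in EILP_WT and at 6.97 and 7.65 in EILP_KO, and the sort gene Thy1 was at 4.99 and 4.85 in ILCP_WT and at 2.46 or lower in the 13 other libraries. Between 747 and 2575 genes of a library were listed at that library's lowest value, which lay between -4.83 and -4.41, and the sequencing depth behind the values is unknown. Some libraries stood apart by markers of other cells. The basophil protease gene Prss34 was at 8.83 in ILCP_WT replicate 1, 8.91 in cEILP_WT replicate 1 and 7.30 in EILP_WT replicate 2. The neutrophil gene S100a8 was at 7.77 in cEILP_WT replicate 3, the erythroid gene Car1 at 10 in EILP_KO replicate 2, and the NK gene Klrb1c at 6.62 in EILP_WT replicate 3.

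Most Rab genes were measured in every progenitor. Values at or above 0 in all 15 libraries were found for 34 of the 50 (68%), against 60.2% of all tested genes. Of these 34, 16 ranged over less than 2 log2 units across the libraries and 18 over 2 or more. The median SD over the 15 libraries was 0.72 for the Rab genes and 0.84 for all tested genes. The smallest SDs belonged to Rab11b (0.18, values 7.81 to 8.40), a recycling endosome Rab, and to Rab7 (0.21, values 7.75 to 8.39), the Rab of late endosomes and lysosomes. The largest belonged to Rab36 (4.05), listed at the lowest value in 6 libraries, and the Golgi Rab6b (4.0), at the lowest value in 7. In all, 16 Rab genes were at the lowest value in at least 1 library and 8 of them in 8 or more, among them Rab13, Rab15, Rab30 and Rab33a. It is not stated whether the deposited values are divided by transcript length, so levels are compared here between libraries of 1 gene and not between genes.

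**Figure D1:**
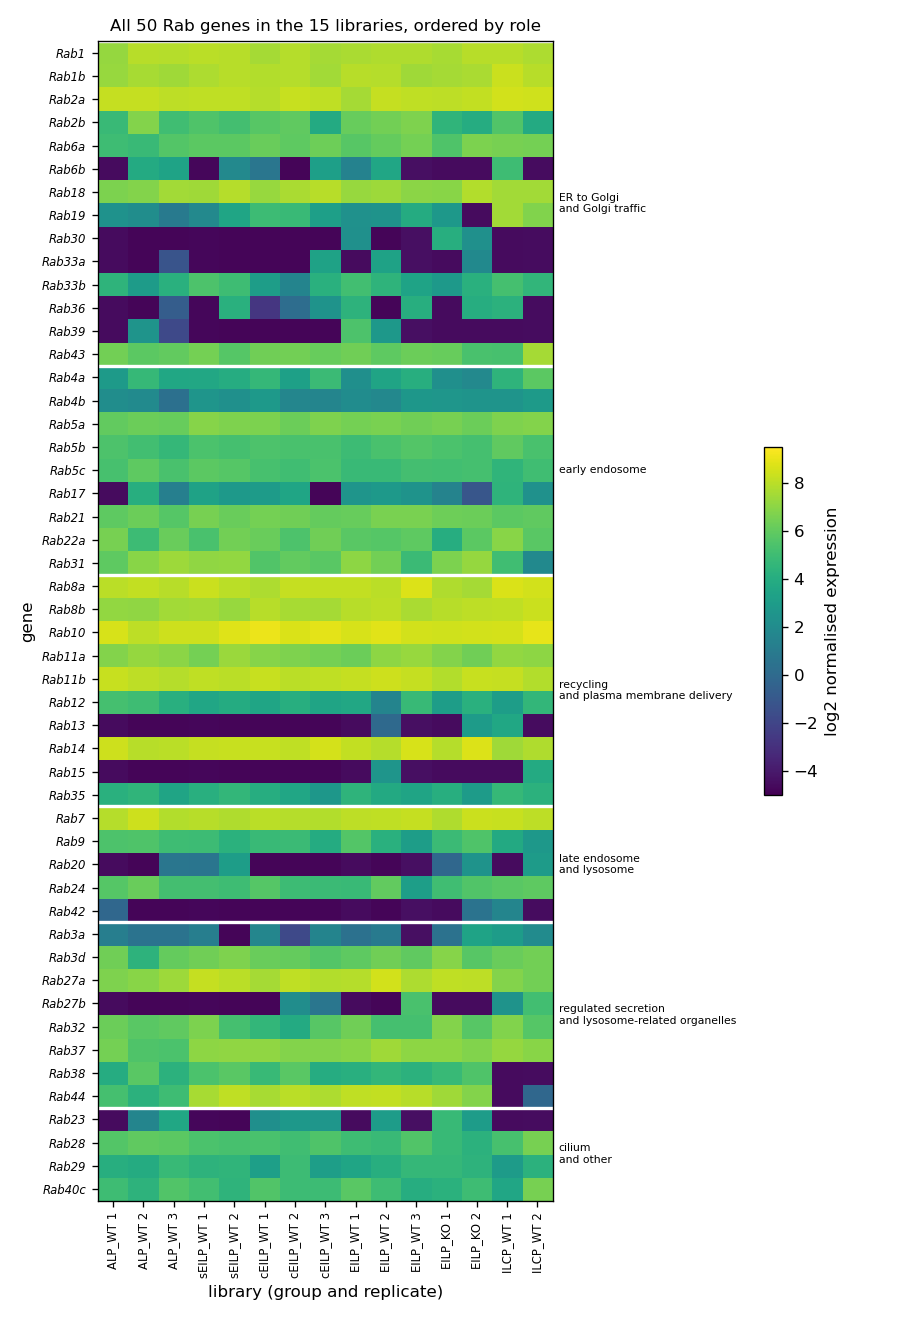
Log2 normalised expression of the 50 Rab genes (rows, grouped by role) in the 15 libraries (columns, group and replicate); the colour scale runs from -5 to 9.5. Of the 50 rows, 34 stay at or above 0 in all libraries and 16 reach the lowest value in at least 1 library, and Rab38 and Rab44 turn dark in both ILCP_WT libraries and Rab19 is brightest there.

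An F test over the 6 groups (limma, with a batch term, Benjamini-Hochberg adjusted p under 0.05) called 4 Rab genes, 8% of 50, beside 8.36% of all tested genes. They were Rab38 (adjusted p = 0.000123), Rab44 (0.000167), Rab27a (0.0157) and Rab37 (0.0351). All 4 belong to the 8 Rabs of regulated secretion and lysosome-related organelles. The list of these 8 was drawn up with results of these data known, so this is a description. Over the 7 pairwise comparisons 10 of the 50 (20%) passed in at least 1, beside 17.5% of all tested genes. In bulk samples a lower value can mean fewer cells that express a gene or less RNA per cell, and these cannot be told apart. In that test the family was called about as often as all genes, and the account below is of the few members that changed, by role.

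The counts over the family stood near or above the background of each comparison. From ALP_WT to EILP_WT limma called 3 of 50 Rab genes (6%), beside 3.21% of all tested genes. All 3 were higher and 0 lower, beside 1.71% of all genes higher and 1.5% lower. Of the 50 estimates 31 were positive, beside 49.5% of all genes. From EILP_WT to ILCP_WT 3 of 50 (6%) were called, beside 6.95%, with 0 higher and 3 lower, beside 2.61% and 4.34%. There 33 of 50 Rab estimates were positive, beside 47.6% of all genes, and their median was 0.26, beside -0.06. From cEILP_WT to ILCP_WT 3 were called, beside 7.41%, again 0 higher and 3 lower, beside 2.69% and 4.72%. In that comparison 33 of 50 estimates were positive, beside 47.2% of all genes, with a median of 0.32, beside -0.07. From ALP_WT to ILCP_WT 9 of 50 (18%) were called, beside 13.4%, with 5 higher and 4 lower, beside 5.56% and 7.86%. The median difference there was 0.31 for the Rab genes and -0.09 for all tested genes, and 34 of 50 Rab estimates were positive, beside 46.8% of all genes. These comparisons share libraries and are given side by side only.

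**Figure D2:**
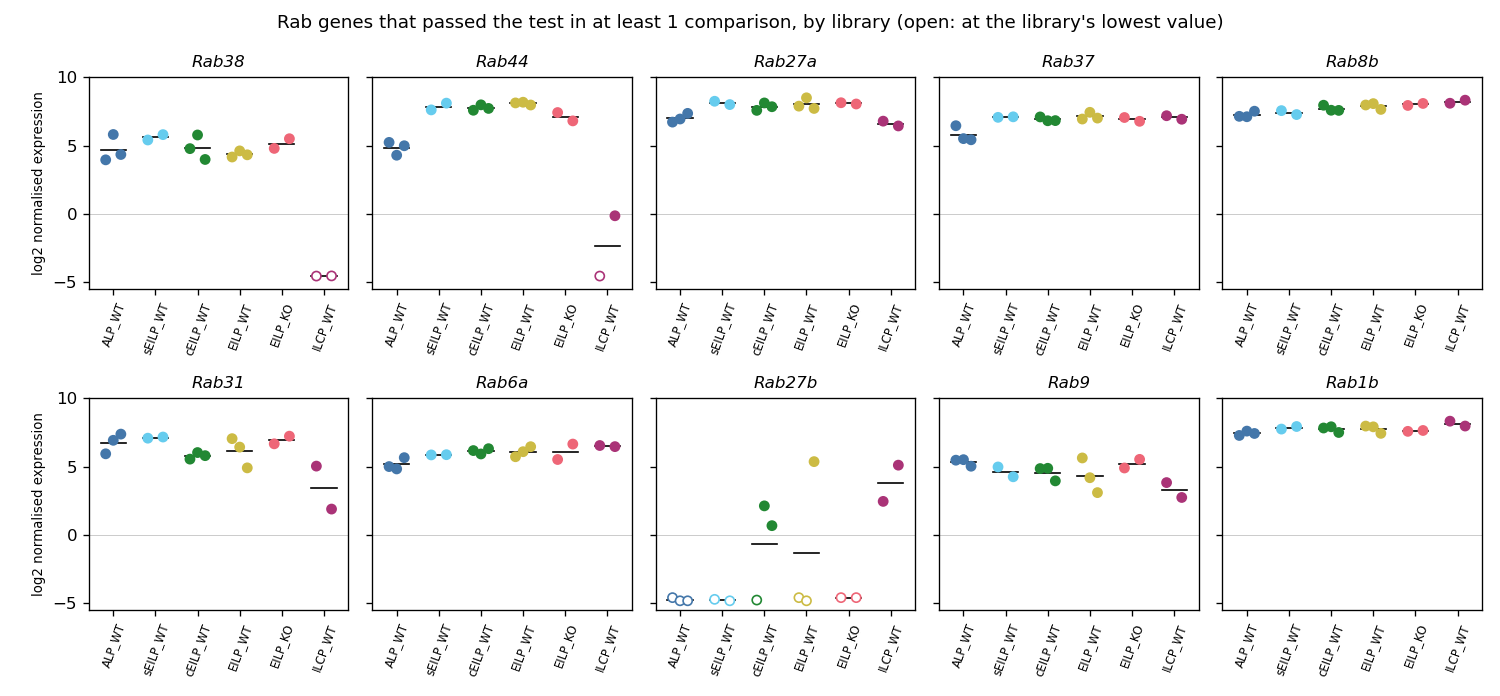
Log2 normalised expression of the 10 Rab genes that passed in at least 1 comparison, in the order of the F test; each point is a library, the bar is the group mean, and an open point is at that library's lowest value. Rab38 and Rab44 drop in both ILCP_WT libraries, Rab44, Rab27a and Rab37 sit lower in ALP_WT than in EILP_WT, and Rab8b, Rab6a and Rab1b sit higher in ILCP_WT than in ALP_WT by 0.95, 1.41 and 0.68.

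The 3 Rab genes below fell in ILCP_WT (Rab27a against EILP_WT, Rab31 and Rab9 against ALP_WT) and have a promoter entry in the RefSeq table (build GRCm38.p6), and the 250 bases before the annotated start are shown as the upstream sequence of genes with a fall. Capitals mark the core of the TCF/LEF site (CTTTGA or CTTTGT, the family of TCF-1) and of the RUNX site (TGTGGT), searched on both strands, so that ACAAAG and ACCACA are reverse matches. The regions are chr9:73044560-73044809 on the plus strand for Rab27a, chr17:65772753-65773002 on the minus strand for Rab31 and chrX:166479868-166480117 on the minus strand for Rab9.
Rab27a: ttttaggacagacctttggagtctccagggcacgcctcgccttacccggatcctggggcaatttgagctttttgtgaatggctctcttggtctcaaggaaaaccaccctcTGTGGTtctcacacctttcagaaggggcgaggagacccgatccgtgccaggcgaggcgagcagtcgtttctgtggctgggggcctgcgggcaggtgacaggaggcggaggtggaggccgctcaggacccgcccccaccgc
Rab31: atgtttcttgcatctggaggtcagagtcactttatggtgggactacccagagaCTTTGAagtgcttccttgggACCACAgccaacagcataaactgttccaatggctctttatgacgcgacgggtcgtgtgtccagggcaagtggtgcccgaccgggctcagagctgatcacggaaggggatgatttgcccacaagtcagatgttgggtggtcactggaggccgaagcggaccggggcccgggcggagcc
Rab9: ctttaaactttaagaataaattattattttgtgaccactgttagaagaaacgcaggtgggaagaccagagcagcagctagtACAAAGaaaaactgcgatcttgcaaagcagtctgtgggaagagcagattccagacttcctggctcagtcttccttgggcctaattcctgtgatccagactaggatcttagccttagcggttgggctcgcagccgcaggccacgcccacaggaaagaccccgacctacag
Rab27a held 1 RUNX core, Rab31 1 of each kind and Rab9 1 TCF/LEF core, and the windows of Rab1b, Rab6a and Rab8b, which rose in ILCP_WT, held neither. Of 32841 promoter windows of the same length, 13.8% held CTTTGA, 16.5% CTTTGT and 14% TGTGGT, so a match is common and is a description only. Rab27a has a second annotated start, whose window held none of these cores. Promoters were matched for 6 of the 10 genes that passed, and none for Rab27b, Rab37, Rab38 and Rab44.

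The Rabs of regulated secretion and lysosome-related organelles made up 5 of the 10 Rab genes that passed. Of 8 tested members 3 rose from ALP_WT to EILP_WT and 0 fell, beside 1.71% and 1.5% of all tested genes. From EILP_WT to ILCP_WT 0 rose and 3 fell, beside 2.61% and 4.34%. From ALP_WT to ILCP_WT 2 rose and 2 fell, beside 5.56% and 7.86%. The median difference of the 8 was 0.65 on the log2 scale from ALP_WT to EILP_WT, beside -0.01 over all tested genes, and 0.14 from EILP_WT to ILCP_WT, beside -0.06, so that this second median is positive although the 3 calls are falls. The list was drawn up with results of these data known, so its counts are a description.

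Rab44 is an atypical, large Rab with EF-hand domains, studied in mast cells and osteoclasts. It was at 5.23, 4.29 and 4.98 in ALP_WT, at 7.61 and 8.10 in sEILP_WT, and at 7.58, 7.98 and 7.72 in cEILP_WT. EILP_WT libraries were at 8.12, 8.17 and 7.97, EILP_KO libraries at 7.41 and 6.80, and ILCP_WT libraries at the lowest value and at -0.14. Every EILP library of either genotype was thus above every ALP_WT library, and both ILCP_WT libraries were below all others. Rab44 rose from ALP_WT to EILP_WT by 3.40 (SE 0.80, limma adjusted p = 0.0418), a 10.6-fold difference. This call was kept in 4 of the 15 fits that left out 1 library, with adjusted p from 0.0549 to 0.134 in the other 11 and estimates of 3.07 to 3.94. It fell from EILP_WT to ILCP_WT by 10.51 (SE 0.87, limma adjusted p = 3.21e-05) and from ALP_WT to ILCP_WT by 7.11 (SE 0.87, limma adjusted p = 0.000319). With 1 ILCP_WT library at the lowest value these estimates of the fall depend on that floor. With values below 0 set to 0 they were -8.04 and -4.88 (limma adjusted p = 1.77e-08 and 1.09e-06). In that same fit the rise from ALP_WT to EILP_WT was 3.15 (limma adjusted p = 4.49e-05). Over all 27 alternatives the rise lost its call in 14.

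Mast cell and basophil markers were measured beside Rab44, since it is known in those cells. Of 9 markers 7 were in the table, and their summed level on the log2 scale ranged from 3.94 to 5.69 in ALP_WT, from 9.18 to 9.94 in EILP_WT, from 10.10 to 10.98 in sEILP_WT and cEILP_WT, from 8.71 to 9.02 in EILP_KO and from 6.49 to 9.63 in ILCP_WT. Ms4a2 was at the lowest value in both sEILP_WT libraries and Hdc in all EILP_WT libraries. Cpa3 made up most of that sum in the EILP groups, at 7.95 to 10.34. The groups with a higher sum than ALP_WT therefore include those with more Rab44, and the part of these cells in the rise was not tested. In ILCP_WT replicate 1 the sum was 9.63, with Mcpt8 at 7.51, while Rab44 was at the lowest value.

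Rab38, with Rab32 a Rab of melanosomes and other lysosome-related organelles, was at 3.95, 5.81 and 4.34 in ALP_WT, 5.41 and 5.80 in sEILP_WT, and 4.77, 5.77 and 3.98 in cEILP_WT. It was at 4.16, 4.61 and 4.32 in EILP_WT and at 4.79 and 5.50 in EILP_KO. Both ILCP_WT libraries had it at their lowest value. The 13 other libraries lay between 3.95 and 5.81, where the EILP_WT libraries were below those of sEILP_WT and EILP_KO, and the ILCP_WT libraries lay apart from all of them. Because ILCP_WT was wholly at its lowest value no fold is given. The limma estimate was -8.92 against EILP_WT (adjusted p = 5.45e-05), -9.24 against ALP_WT (2.44e-05) and -9.40 against cEILP_WT (3.19e-05), and with values below 0 set to 0 the first became -4.37 (adjusted p = 0.00219). Rab32 was at 6.74 and 5.69 in ILCP_WT and at 6.24, 5.78 and 5.96 in ALP_WT, and its ILCP_WT against ALP_WT difference of 0.18 (SE 0.62) did not pass (limma adjusted p = 0.903).

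The fall of Rab38 and of Rab44 in ILCP_WT was seen in each batch. In batch 1 alone the ILCP_WT against EILP_WT estimates were -8.94 and -12.70 (limma adjusted p = 0.00539 and 0.000529). In batch 2 alone they were -8.86 and -8.11 and did not pass (limma adjusted p = 0.162 and 0.137), where each of these groups has 1 library. All 3 comparisons of ILCP_WT with ALP_WT, EILP_WT and cEILP_WT kept both calls in each of the 15 fits that left out 1 library.

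Rab27a, which tethers granules to the plasma membrane, was at 6.71, 6.94 and 7.35 in ALP_WT, 8.24 and 8.0 in sEILP_WT, and 7.57, 8.12 and 7.84 in cEILP_WT. EILP_WT libraries were at 7.88, 8.49 and 7.71, EILP_KO libraries at 8.13 and 8.04, and ILCP_WT libraries at 6.78 and 6.43. The EILP groups were high, and ALP_WT and ILCP_WT were low and overlapped. It was higher in EILP_WT than in ALP_WT by 1.00 with an SE of 0.25, a 2-fold rise that only just passed (limma adjusted p = 0.0495) and was kept in 1 of 15 fits without 1 library. It fell from EILP_WT to ILCP_WT by 1.41 (SE 0.27, limma adjusted p = 0.00837), a 2.65-fold difference. Without ILCP_WT replicate 2 the estimate was -1.26 (limma adjusted p = 0.0585). A pseudogene, Gm27186, shares 149 exon bases with Rab27a on the same strand, so reads there are uncertain.

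Its paralogue Rab27b stood at the lowest value in all ALP_WT, sEILP_WT and EILP_KO libraries, in 1 of 3 cEILP_WT and in 2 of 3 EILP_WT libraries. It was at 2.45 and 5.10 in ILCP_WT, at 2.12 and 0.67 in the other cEILP_WT libraries and at 5.36 in EILP_WT replicate 3. It rose from ALP_WT to ILCP_WT (limma adjusted p = 0.0342), and no fold is given against a group at the lowest value. The call was lost in 12 of 27 alternatives, among them the fits without ILCP_WT replicate 1 (limma adjusted p = 0.129) and without replicate 2 (0.134). Of the NK markers, Ncr1 was at 6.29 and 7.03 in ILCP_WT and at 4.44 in EILP_WT replicate 3. It was at no more than 0.48 in the other 12 libraries, which include those of cEILP_WT with Rab27b at 2.12 and 0.67. Klrb1c was at 5.05 and 5.96 in ILCP_WT and at 6.62 in EILP_WT replicate 3, but also at 3.61 in ALP_WT replicate 2. Eomes was at 4.78, 4.92 and 6.48 in those libraries, but also at 4.61 in cEILP_WT replicate 1, where Rab27b was at its lowest. Nkg7 was at 6.56 or above in all libraries. The summed level of 9 of 10 T and NK markers in the table ranged from 7.96 to 8.78 in ALP_WT, with 5 of them at the lowest value in every library, and from 9.71 to 9.93 in ILCP_WT, with Gzma at the lowest value. Their part in the rise was not tested.

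Rab37, a Rab of secretory granules, was at 6.45, 5.51 and 5.42 in ALP_WT and between 6.77 and 7.43 in all 12 other libraries. ALP_WT thus lay below every other group with no overlap. It rose to EILP_WT by 1.21 (SE 0.23, limma adjusted p = 0.0152), 2.31-fold, and to ILCP_WT by 1.2 (SE 0.25, limma adjusted p = 0.00923), 2.29-fold. The first call was lost without ALP_WT replicate 2, ALP_WT replicate 3 or EILP_WT replicate 3 (limma adjusted p = 0.0526, 0.0501 and 0.0937) and the second without ILCP_WT replicate 2 (0.0687). Cd300lf lies on the opposite strand inside an intron of Rab37, shares 0 exon bases with it and averaged -2.46 over the libraries. The Rab3 proteins act in regulated exocytosis, and Rab3a and Rab3d passed in no comparison: Rab3d was at 4.37 to 6.84 and Rab3a at no more than 3.39.

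Endosomal Rabs changed in 2 instances, both from ALP_WT to ILCP_WT. In the early endosome list 1 of 9 genes passed (11.1%) and in the late endosome list 1 of 5 (20%), beside 13.4% of all genes. For lists this short these counts are near that background. Rab31, which acts between the Golgi and early endosomes, was at 5.93, 6.92 and 7.37 in ALP_WT, 7.07 and 7.16 in sEILP_WT, and 5.54, 6.02 and 5.80 in cEILP_WT. EILP_WT libraries were at 7.04, 6.42 and 4.90, EILP_KO libraries at 6.66 and 7.22, and ILCP_WT libraries at 5.03 and 1.89. The 2 ILCP_WT libraries differed by more than 3 log2 units and only the second was far below the rest. The fall of 3.38 (SE 0.77, limma adjusted p = 0.0134) rested on it: without ILCP_WT replicate 2 the estimate was -1.74 (limma adjusted p = 0.203).

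Rab9, which acts in traffic from late endosomes back to the Golgi, was at 5.46, 5.50 and 5.02 in ALP_WT and at 3.82 and 2.74 in ILCP_WT. EILP_WT, at 5.63, 4.18 and 3.09, overlapped both. The sEILP_WT (4.97 and 4.25) and cEILP_WT (4.85, 4.87 and 3.95) libraries lay between them, and EILP_KO (4.89 and 5.52) overlapped ALP_WT. It fell by 2.17 (SE 0.63, limma adjusted p = 0.0399), and this call was kept in 5 of the 15 fits that left out 1 library. Rab7, Rab20, Rab24 and Rab42 of the late endosome list did not pass in any comparison. The paralogues Rab5a, Rab5b and Rab5c, which mark early endosomes, did not pass either: they lay at 6.04 to 6.87, 4.67 to 5.93 and 4.51 to 5.91, and their ILCP_WT against ALP_WT differences were 0.62, 0.54 and -0.67 (limma adjusted p = 0.0999, 0.381 and 0.214).

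Rabs of the Golgi and of delivery to the plasma membrane gave 3 rises from ALP_WT to ILCP_WT, of 1.6-fold to 2.66-fold. In the Golgi list 2 of 14 genes passed (14.3%) and in the delivery list 1 of 10 (10%), beside 13.4% of all genes. These shares are near that background. Rab8b, which carries vesicles to the cell surface, was at 7.14, 7.11 and 7.51 in ALP_WT and at 8.09 and 8.32 in ILCP_WT, with the groups between at 7.27 to 8.08. It rose by 0.95 (SE 0.21, limma adjusted p = 0.011), 1.93-fold. Without ILCP_WT replicate 2 the estimate was 0.79 (limma adjusted p = 0.109). Its paralogue Rab8a was at 7.97 to 8.18 in ALP_WT and at 8.68 and 8.52 in ILCP_WT, and the difference of 0.58 (SE 0.23) did not pass (limma adjusted p = 0.117).

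Rab6a, which organises traffic within and out of the Golgi, was at 5.0, 4.82 and 5.65 in ALP_WT and at 6.54 and 6.46 in ILCP_WT, with the groups between at 5.51 to 6.64. It rose by 1.41 (SE 0.33, limma adjusted p = 0.0163), 2.66-fold. Without ILCP_WT replicate 1 the estimate was 1.13 (limma adjusted p = 0.116). Rab6a shares 403 exon bases with Mrpl48 on the opposite strand, and since the counting is not stated to use strand the reads of the pair cannot be told apart. Rab1b, which acts between the endoplasmic reticulum and the Golgi, was at 7.27, 7.59 and 7.42 in ALP_WT and at 8.32 and 7.96 in ILCP_WT. It rose by 0.68 (SE 0.19, limma adjusted p = 0.0377), 1.6-fold, while its paralogue listed as Rab1 (now Rab1a) differed by 0.19 (SE 0.22, limma adjusted p = 0.654). The Rab1b call was lost in 13 of 27 alternatives, 8 of them fits without 1 library (limma adjusted p up to 0.177).

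Rab19 showed a large difference that missed the threshold, and it is named here because its values stood out. It was at 7.47 and 6.77 in ILCP_WT, at 4.95, 4.81 and 3.17 in cEILP_WT and at 0.93 to 3.90 in the other WT libraries, while EILP_KO was at 2.74 and at the lowest value. Both ILCP_WT libraries were above all 13 others. The ILCP_WT against ALP_WT difference was 5.04 (SE 1.54, limma adjusted p = 0.0504). It passed with values below 0 set to 0, but in 20 of 27 alternatives it was not called, as in the main fit.

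**Figure D3:**
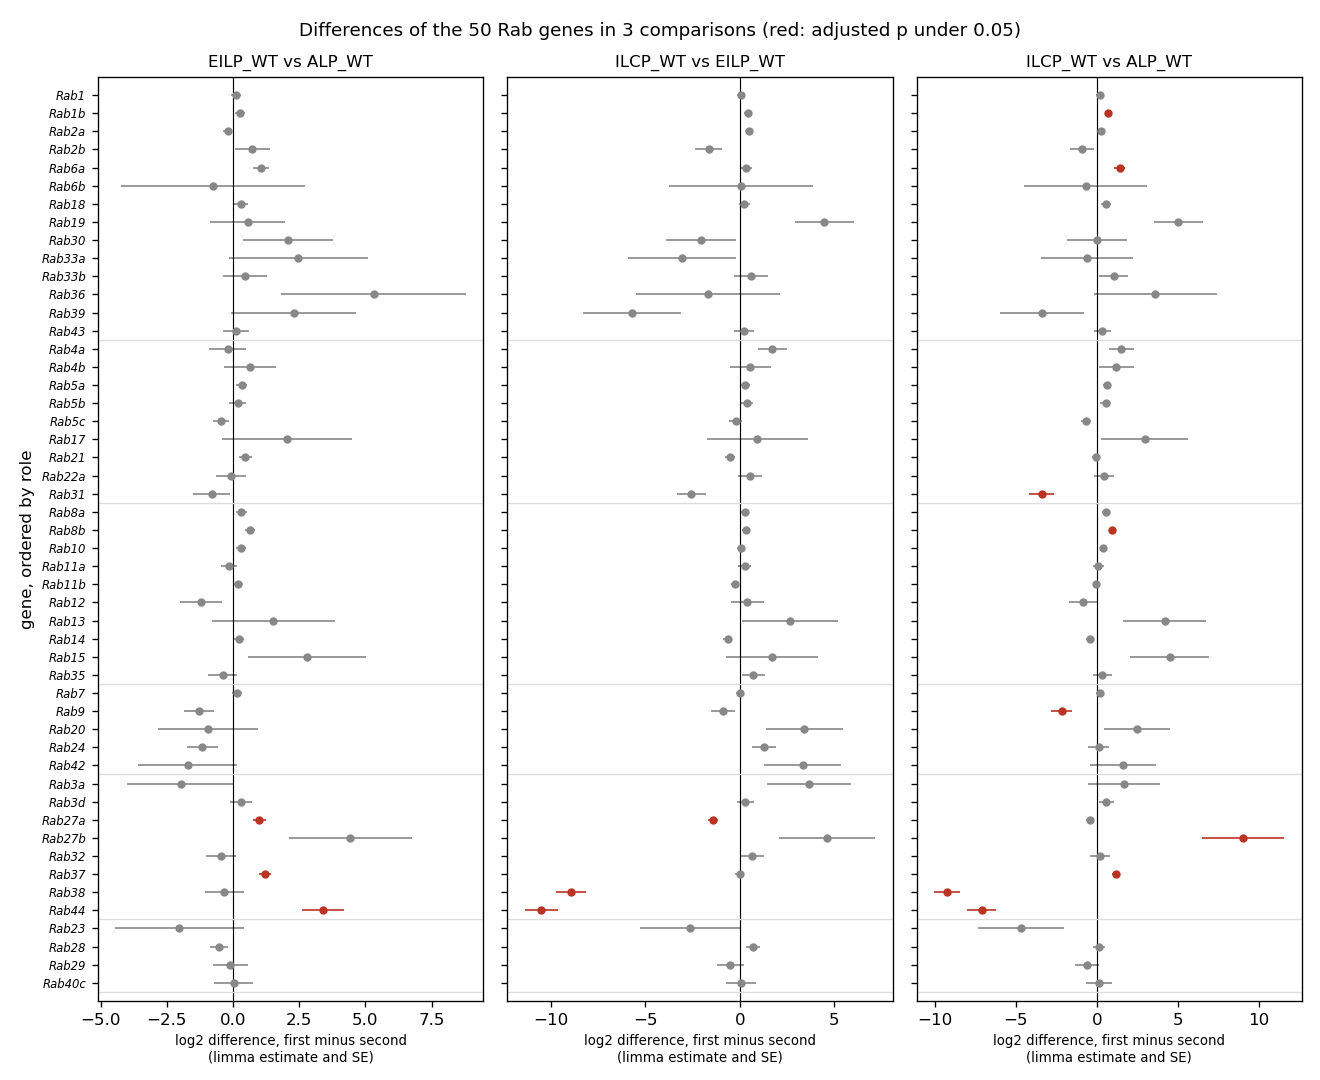
Log2 difference with its SE (limma, batch term) of each Rab gene in 3 comparisons, genes ordered by role with thin lines between roles; red points passed at an adjusted p under 0.05. The red points of the first 2 panels all lie in the regulated secretion block, a list drawn up with results of these data known. The third panel adds rises of Rab1b, Rab6a, Rab8b and Rab27b and falls of Rab31 and Rab9.

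The fraction of EILP with low Zbtb16 did not give a call. From ALP_WT to sEILP_WT limma called 0 of 50 Rab genes, beside 0.803% of all tested genes, 0.493% higher and 0.31% lower. At an unadjusted p under 0.05 there were 7 (14%), beside 9.13%, and Rab44 (3.32, SE 0.94, limma adjusted p = 0.222), Rab37 (1.04, SE 0.27, 0.164) and Rab27a (1.06, SE 0.29, 0.198) were among them. Their sEILP_WT values were above all ALP_WT values. The same held for Rab1b, Rab5a, Rab6a and Rab33b, which did not pass either, so this does not set the named genes apart. Between the cEILP_WT and sEILP_WT fractions 0 of 50 were called, beside 0% of all tested genes. An unadjusted p under 0.05 was found for 3 (6%), Rab20, Rab23 and Rab33b, near the 5.15% of all tested genes. For Rab20 all cEILP_WT libraries and for Rab23 all sEILP_WT libraries were at the lowest value.

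Loss of the remaining Tcf7 allele likewise gave no call among the Rab genes. From EILP_WT to EILP_KO limma called 0 of 50, beside 0.103% of all tested genes, 0.0477% higher and 0.0557% lower, and 7 (14%) had an unadjusted p under 0.05, beside 8.7% of all genes. Rab44 was lower in both EILP_KO libraries than in all EILP_WT libraries (-1.05, SE 0.87, limma adjusted p = 0.765). So were Rab2b (-2.11, SE 0.72, limma adjusted p = 0.468) and Rab8a (-0.68, SE 0.23, 0.452). Rab20, Rab30 and Rab38 were higher in both, so such a separation does not set Rab44 apart. Rab27a differed by 0.07 (SE 0.27), Rab37 by -0.15 (SE 0.25) and Rab38 by 0.77 (SE 0.80), with limma adjusted p of 0.993, 0.927 and 0.837. Rab30, a Golgi Rab named after its values were seen, was at 4.08 and 2.29 in EILP_KO, while EILP_WT replicate 1 had 2.28 and the 12 other libraries their lowest value, and did not pass (limma adjusted p = 0.442).

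Genes that act on all Rabs were tested as a list. The list of GDP dissociation inhibitors, escort proteins, prenylation enzymes and chaperones, which hold Rabs in the cytosol and attach their lipid anchor, had 0 of 10 genes called by limma in each of the 7 comparisons, where 0% to 13.4% of all tested genes were called, a count near that background for so short a list. Gdi2 lay between 8.71 and 9.38 in the 15 libraries. Over this list and those of GEFs, GAPs and effectors, 128 genes of 139 listed were tested, and 16 (12.5%) passed in at least 1 comparison, beside 17.5% of all tested genes. From ALP_WT to EILP_WT 1 rose and 1 fell (1.56%), from EILP_WT to ILCP_WT 1 rose and 5 fell (4.69%), and from ALP_WT to ILCP_WT 3 rose and 10 fell (10.2%). These shares lay below those of all tested genes given above.

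**Figure D4:**
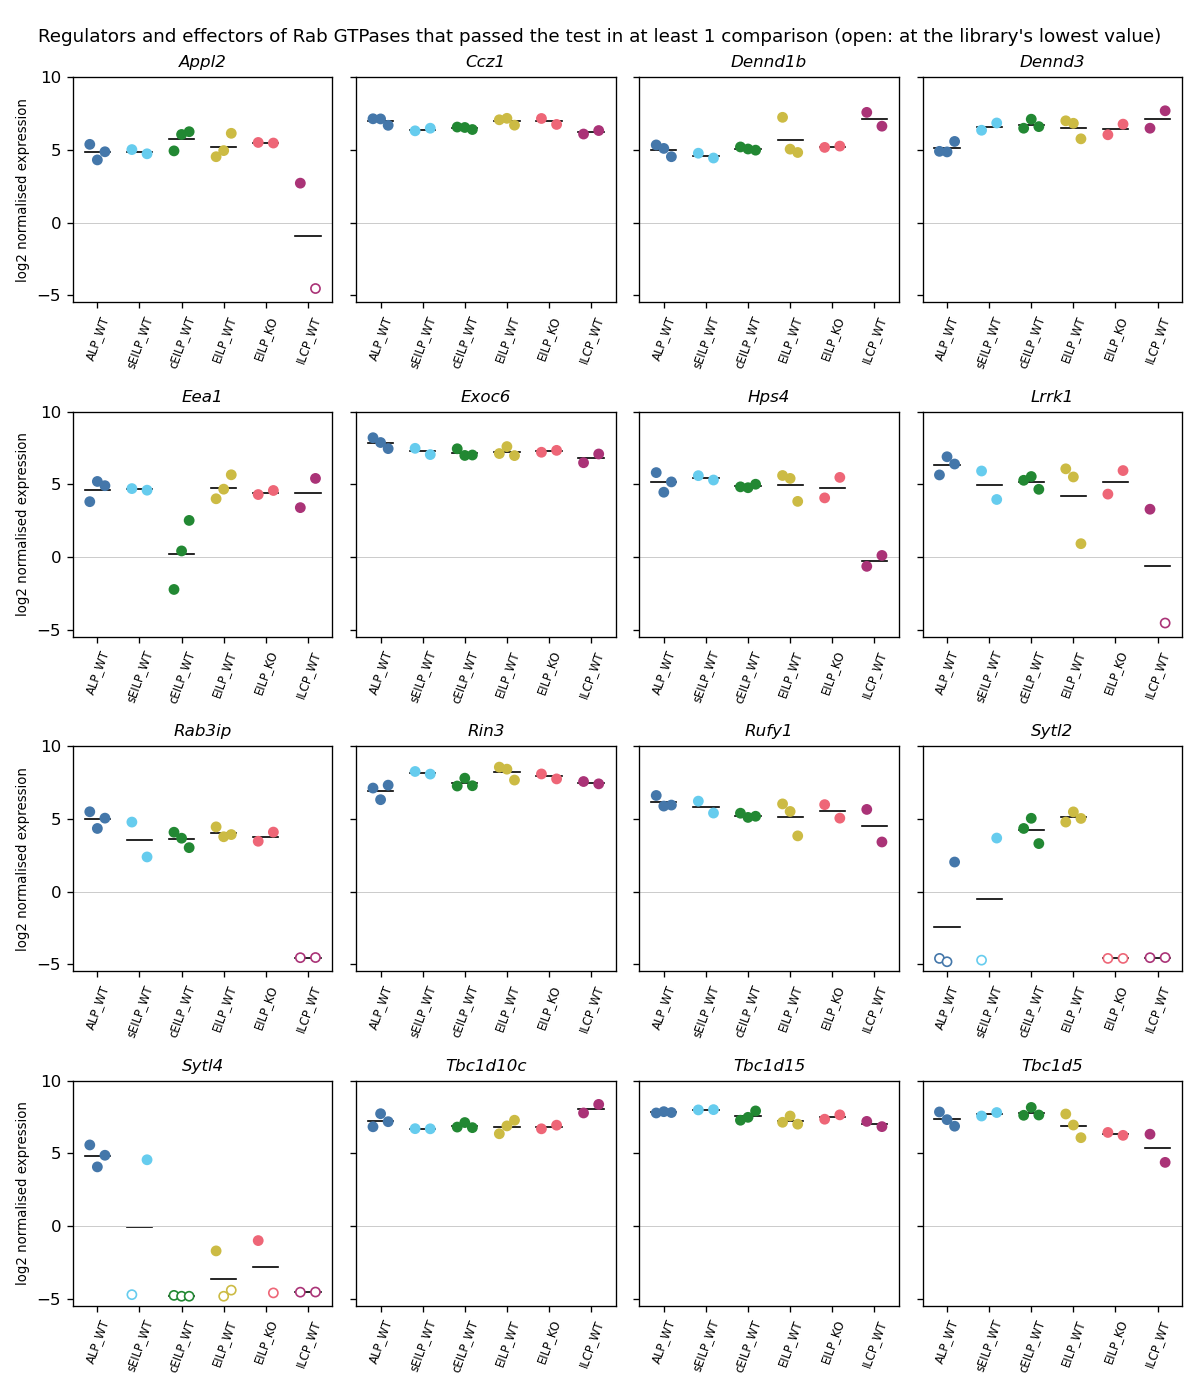
Log2 normalised expression of the 16 regulators and effectors of Rabs that passed in at least 1 comparison; each point is a library, the bar is the group mean, and an open point is at that library's lowest value. Hps4 and Rab3ip are low in both ILCP_WT libraries, Sytl2 is above 3 in all cEILP_WT and EILP_WT libraries and at the lowest value in EILP_KO and ILCP_WT, and Sytl4 is high in all ALP_WT libraries and in 1 sEILP_WT library.

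Among the GEFs, Hps4 is a subunit of BLOC-3, the exchange factor for Rab32 and Rab38. It was between 3.83 and 5.81 in the 13 libraries outside ILCP_WT and at -0.64 and 0.11 in ILCP_WT, so the ILCP_WT libraries lay below all others, as those of Rab38 did. It fell from EILP_WT by 5.18 (SE 0.70, limma adjusted p = 0.000871) and from ALP_WT by 5.44 (SE 0.70, limma adjusted p = 0.000414). Its partner Hps1 was between 6.13 and 7.16 in all libraries and did not pass (-0.50 against EILP_WT, SE 0.27, limma adjusted p = 0.307). Rab3ip, the exchange factor of Rab8 known as Rabin8, was between 2.38 and 5.49 in 13 libraries and at the lowest value in both ILCP_WT libraries (limma adjusted p = 0.000246 against EILP_WT). Rin3, an exchange factor of the Rab5 family that includes Rab31, rose from ALP_WT (7.12, 6.32 and 7.32) to EILP_WT (8.56, 8.42 and 7.67) by 1.17 (SE 0.25, limma adjusted p = 0.0286).

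Effectors of Rab27 took different courses. Sytl4 was at 5.58, 4.07 and 4.87 in ALP_WT and at -1.71 or lower in EILP_WT, with 2 libraries at their lowest value. It fell by 8.86 (SE 2.11, limma adjusted p = 0.0435) where Rab27a rose, and this estimate depends on that floor. With values below 0 set to 0 it was -4.92 (limma adjusted p = 0.00996). Of the 15 fits that left out 1 library, 2 kept the Sytl4 fall and 1 the Rab27a rise. In EILP_WT Sytl2 was at 4.78, 5.48 and 5.03, and all 4 libraries of ILCP_WT and EILP_KO had it at their lowest value. It passed between EILP_WT and ILCP_WT (limma adjusted p = 0.0392) and not between EILP_WT and EILP_KO (limma adjusted p = 0.276). Unc13d, which primes granules bound by Rab27a, was between 6.32 and 8.06 and did not pass.

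Effectors and GAPs of endosomal Rabs changed in both directions. Appl2, an adaptor of Rab5, was at 4.31 to 6.25 in 13 libraries and at 2.71 and the lowest value in ILCP_WT (limma adjusted p = 0.0281 against EILP_WT). Eea1, the tether of Rab5 endosomes, was at -2.23, 0.42 and 2.52 in cEILP_WT and at 3.40 to 5.66 elsewhere, and rose from cEILP_WT to ILCP_WT by 3.88 (SE 0.90, limma adjusted p = 0.0247). Lrrk1, a kinase that acts on Rab7, was at 5.65, 6.90 and 6.40 in ALP_WT and at 3.29 and the lowest value in ILCP_WT (limma adjusted p = 0.0149). Tbc1d5, a GAP of Rab7, fell from ALP_WT to ILCP_WT by 2.14 (SE 0.38, limma adjusted p = 0.00362). Tbc1d10c, a GAP of Rab35, rose from EILP_WT to ILCP_WT by 1.17 (SE 0.27, limma adjusted p = 0.0227).

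The calls of these regulators and effectors also varied with the libraries. In the 15 fits that left out 1 library, Hps4 and Rab3ip kept their calls against ALP_WT and EILP_WT in all 15. Rin3 kept its call in 11, Sytl2 in 8 and Sytl4, from ALP_WT to EILP_WT, in 2. Without ILCP_WT replicate 2 the estimate for Lrrk1 was -3.63 (limma adjusted p = 0.218), that for Appl2 against EILP_WT -2.38 (0.0796) and that for Tbc1d5 against ALP_WT -1.45 (0.0569). Eea1 lost its call without either ILCP_WT replicate (limma adjusted p = 0.0861 and 0.107), and Tbc1d10c without either ILCP_WT replicate or EILP_WT replicate 1 (0.0646, 0.118 and 0.062).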

How the data were processed

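RNA from sorted cells was made into libraries with SMARTer Ultra Low Input and Nextera XT kits, per the labels' protocols. Per the submitters' processing notes, the tools included STAR 2.5.2b, RSEM 1.2.23 and limma, on build mm10, and the annotation and strand setting are not given in the sources used here. The authors deposited 1 table of log2 values, which share their quantiles across libraries. It holds no counts, so no count model was used and the depth is unknown. Each library has its own lowest value, where genes of no measured expression are listed.

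Here limma 3.58.1 (R 4.3.3) was fitted to the deposited log2 values of all 15 libraries with a term per group and 1 for batch (8 residual degrees of freedom) and an intensity trend in the variance. Genes at 0 or above in 2 or more libraries were tested, p-values were adjusted by Benjamini-Hochberg over all of them within a comparison, and a gene was called at an adjusted p under 0.05. The 7 comparisons followed the labels' groups. Fold changes come from the model, so they can differ from differences of group means by the batch term. The script was tested on simulated data.

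Named are all Rab genes that passed, their paralogues, those with the 2 smallest and 2 largest SDs, and up to 4 called regulators per comparison with the largest change that were not at the lowest value in a whole group. Rab3ip, Sytl2, Hps1, Unc13d and Gdi2 were added after their values were seen. The members and lists were chosen with earlier results of these data known. Alternatives were a second quantile normalisation, cyclic loess, a floor at 0, no filter, a filter at 3, no batch term, each batch alone, 2 groups alone, no variance trend, library weights, a replicate block and leaving out each library. Coordinates come from RefSeq, and gene overlaps from GENCODE M21.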

Additional observations from a re-analysis of the deposited data

How the results depend on the processing

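Groups of 2 and 3 libraries, without depth, limit every call, and each value near the threshold moves with the setting. The ILCP_WT falls of Rab38 and Rab44 against ALP_WT, EILP_WT and cEILP_WT passed in all but 2 of 27 alternatives each, the exceptions being batch 2 alone and the 2 groups alone. Of 48 differences of single genes (called Rab genes, called regulators and effectors, Rab19 and Rab30), 0 changed direction under any alternative run. These differences were chosen by their values in these libraries, which the alternatives reuse, so this is not an independent check. Each batch alone left some groups with 1 library, so its counts cannot be read as results about Rab genes. With the 2 groups alone 0 of all tested genes were called for ILCP_WT against EILP_WT and against cEILP_WT. The 1 Rab gene called with the 2 groups alone for ILCP_WT against ALP_WT was not among the 9 of the main fit. The count of called Rab genes moved by over 1.5 times as follows. For EILP_WT against ALP_WT (3 called) it was 1 in batch 1 alone, 0 in batch 2 alone, 1 with the 2 groups alone and 0 without the variance trend, and leaving out 1 library gave 0 to 2, with 0 without ALP_WT replicate 2 or EILP_WT replicate 3. The call of Rab27a there was kept in 1 of 15 such fits, that of Rab44 in 4 and that of Rab37 in 12. For ILCP_WT against EILP_WT (3 called) it was 5 in batch 1 alone, 0 in batch 2 alone and 0 with the 2 groups alone, and 2 to 5 leaving out 1 library, with 5 without ALP_WT replicate 1 or ILCP_WT replicate 1. For ILCP_WT against ALP_WT (9 called) it was 4 in batch 1 alone, 0 in batch 2 alone, 1 with the 2 groups alone and 4 with library weights, and 3 to 10 leaving out 1 library, with 3 (Rab38, Rab44 and Rab6a) without ILCP_WT replicate 2. For sEILP_WT against ALP_WT (0 called) it was 1, Rab44, with values below 0 set to 0 and in batch 1 alone, and 0 to 1 leaving out 1 library, with 1 without either ILCP_WT replicate. For ILCP_WT against cEILP_WT (3 called) it was 0 in batch 2 alone and 0 with the 2 groups alone, and 2 to 4 leaving out 1 library. For the F test (4 called) it was 7 with values below 0 set to 0, where Rab19, Rab8b and Rab30 joined, 2 in batch 1 alone, 0 in batch 2 alone and 2 without the variance trend, and 3 to 6 leaving out 1 library. The 2 other comparisons gave 0 leaving out any 1 library. The cause of each move was not tested, apart from the fewer libraries in the subsets.

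Of 33 pairs of libraries with the same replicate number 0 had a correlation of their deviations from the group mean over 0.1 (-0.073 to 0.049). In a group of 2 libraries these deviations are opposite by construction, so the check cannot exclude that replicates were paired. With the replicate block the count was 0 for EILP_WT against ALP_WT and 2 for the F test. It was 2 for ILCP_WT against EILP_WT, 8 for ILCP_WT against ALP_WT, 2 for ILCP_WT against cEILP_WT and 0 for the rest.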
